A study of Mus musculus with 1086 samples.

Results

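WSB/EiJ is an inbred strain derived from wild house mice, and it is 1 of the 8 founder strains of the Diversity Outbred population. The libraries described here are the 16 liver libraries labelled WSB/EiJ among the 128 founder libraries (the whole series has 1086 sequencing records, most of them from Diversity Outbred mice, which were not analysed here). They were compared with 110 libraries of the other 7 founders: 129S1/SvImJ, A/J, C57BL/6J (B6), NOD/ShiLtJ, NZO/HILtJ, CAST/EiJ and PWK/PhJ. All founder mice were males bought from The Jackson Laboratory, housed at the University of Wisconsin and put on their diets at 4 weeks, and they were killed at 26 weeks, apart from NZO, killed at 20 weeks because many died on the rich diet. Each strain had 8 libraries labelled standard chow and 8 labelled high fat, and poly(A) RNA was read as single ends of 100 bases. The labels describe the founder diets in more than 1 way, as a control diet with 17% of energy from fat against a high-fat, high-sucrose diet with 45% of energy from fat and 34% sucrose by weight, and also as chow with 6% fat against chow with 22% fat by weight, so the groups are called chow and high fat. Each library is labelled as its own mouse.

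The liver makes the plasma proteins, synthesises and exports lipid, makes bile acids and clears foreign compounds, and most of its RNA comes from hepatocytes. Inbred strains differ in liver RNA through variants that act on single genes, through gains and losses of gene copies, and through circulating signals such as insulin and growth hormone that move many genes at once. WSB is known as a lean strain that gains little fat on rich diets, and it carries many extra copies of Cwc22, which encodes a splicing factor. The 3 subspecies behind the founders differ: WSB and most of the classical laboratory genome come from Mus musculus domesticus, CAST from castaneus and PWK from musculus.

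All values below are count equivalents, the deposited upper-quartile-scaled values multiplied by 1 constant (114.5) so that they lie on the scale of estimated read counts. Differences are log2(value + 1) and are given with their standard error (SE), and a gene was called at a Benjamini-Hochberg adjusted p under 0.05 from limma fitted to all 13524 genes tested. A difference on this scale understates the change of genes near 0. The recovered library totals were 6285789 to 11151595 estimated counts in WSB and 5848163 to 14009970 over all founders. Of the 128 libraries, all but 2 correlated best with the mean profile of their own label. These 2, 1 labelled B6 and 1 labelled NOD, each lay nearest the other of these strains and were left out. All 16 WSB libraries were nearest WSB, with correlations of 0.488 to 0.804 to the mean of the other WSB libraries and none above 0.01 to another strain. The lowest of these was WSB chow replicate 2: 2187 genes in it lay more than 2-fold from its group's mean, against 561 to 1048 genes in the other 15. In it Cxcl9, a chemokine, was at 865 count equivalents where the other 7 WSB chow libraries had at most 33.7. Counts of the gene lists across both diets are also given without this library where they change.

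The question of this comparison was how the WSB liver differed from the average of the other founders. WSB differed from the mean of the other 7 in 7419 of 13524 genes (54.9%), of which 3654 were higher in WSB (27%) and 3765 lower (27.8%). More than 2-fold differences were found for 508 genes higher and 722 lower. Within chow 5438 genes were called (40.2%) and within high fat 5796 (42.9%). On chow 2684 of them were higher and 2754 lower, and on high fat 2827 were higher and 2969 lower. Against the 5 classical strains alone 7453 were called (55.1%), and against CAST and PWK alone 7855 (58.1%). With so many genes called, a difference from the mean says little about WSB by itself, because a single distant strain can move the mean. A stricter test therefore asked for WSB to lie beyond each of the other 7 strains in the same direction. It called 501 genes (3.7%), 253 higher (1.87%) and 248 lower (1.83%), and these are called WSB-extreme below.

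The same test applied to each strain in turn gave from 98 genes (129S1) to 224 genes (NOD) in the 5 classical strains, 1172 for PWK and 1823 for CAST. WSB thus stood between the classical strains and the founders of the other subspecies. The tests share libraries, so their counts are not independent.

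**Figure D1:**
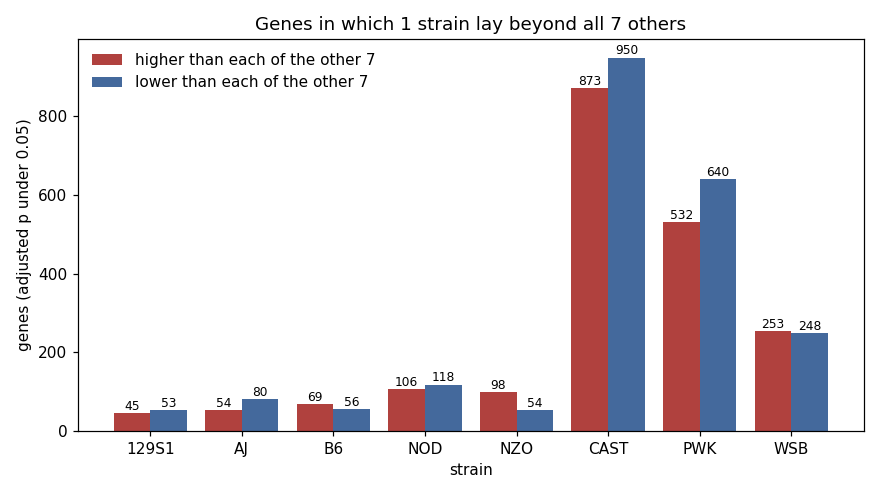
Number of genes (vertical axis) in which the strain on the horizontal axis lay beyond all 7 others at an adjusted p under 0.05, higher in red and lower in blue. WSB has 253 and 248, more than any classical strain and fewer than CAST (873 and 950) or PWK (532 and 640).

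Among genes with a symbol whose WSB libraries lay clear of all others, the smallest adjusted p was that of Cwc22. It encodes a spliceosome protein also needed to load the exon junction complex. Its WSB libraries held 2840, 3470 and 4200 count equivalents (lowest, median and highest), and the 110 others held 52.8 to 183. The groups did not overlap, and the difference was 5.08 ± 0.065 (33.9-fold, adjusted p = 9.93e-98). The difference was 5.05 on chow and 5.12 on high fat. How reads from copies that share sequence were assigned is not known here, and neither is which copies this value covers.

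Complete separation of all 16 WSB libraries from all 110 others was rare. Across the genes tested, 23 (0.17%) lay wholly above and 7 (0.0518%) wholly below. Besides Cwc22, those above included Cenpm, a centromere protein (112.8 to 221 in WSB, 0 to 66.2 in the others), Il1f9, the cytokine interleukin 36 gamma (53.1 to 107.7 against 0 to 27.8), and Susd2, a membrane protein with a sushi domain (57.3 to 152.3 against 1.16 to 48.1). Chosen after their values were seen, Slc13a2, a dicarboxylate transporter (16.1 to 113.1 against 0 to 8.53), Asgr2, a subunit of the asialoglycoprotein receptor (1610 to 2670 against 271 to 1570), Ecm1 (1170 to 1820 against 260 to 1150) and Kdm5b, a histone demethylase (362 to 866 against 113.7 to 353), belong to the same set. A further 6 of the 23 are identifiers without a symbol that hold identical values in every library, so they are a single measurement. It was at 146.3 to 220 in WSB and 0 to 16.8 in the others. Its difference of 6.91 ± 0.053 (adjusted p = 3.05e-122) was larger than that of Cwc22.

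The 7 genes wholly below included Nxpe2, Pdzrn3, Hint3, Prpf19, Pon3 and Gm14296, all but Nxpe2 and Pdzrn3 named after their values were seen. Nxpe2 was at 0 to 2.36 in the WSB libraries and at 12.4 to 428 in the others, a difference of -6.38 ± 0.17. Pdzrn3, a ubiquitin ligase, had 4.24 to 13.1 in WSB and 13.4 to 130 in the others. Pon3, a lactonase carried on lipoproteins, had 94.5 to 181.8 against 195.1 to 579. Prpf19, another spliceosome component, was lower by a smaller amount, 296 to 453 against 459 to 930.

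**Figure D2:**
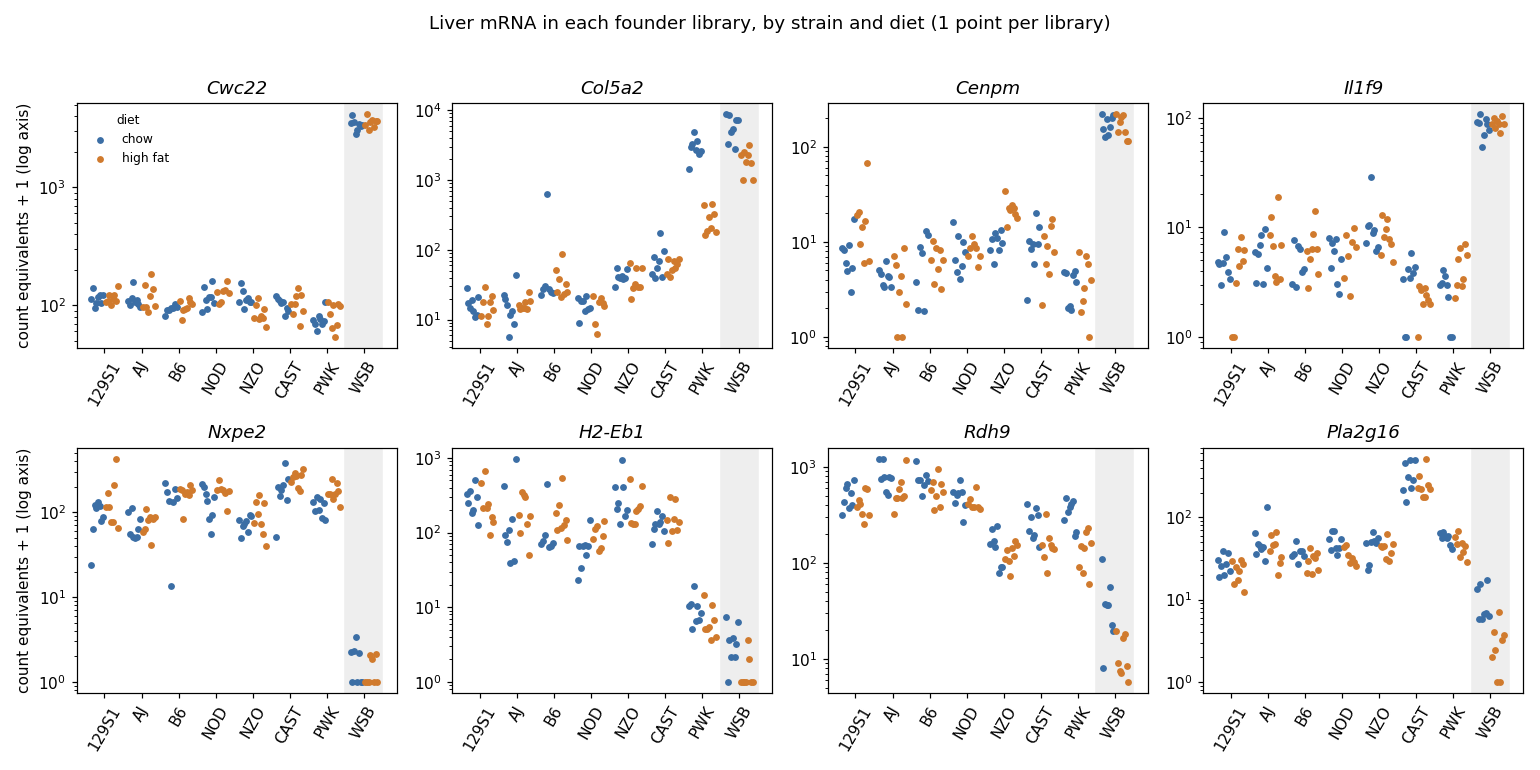
Count equivalents plus 1 (log axis) of 8 genes in every founder library, by strain, with chow in blue and high fat in orange. The shaded WSB column stands clear of the others for Cwc22, Cenpm, Il1f9 and Nxpe2, while PWK lies next to WSB for Col5a2 and H2-Eb1, and the 2 WSB diets differ for Rdh9 and Pla2g16.

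Among other WSB-extreme genes with large differences, Col5a2, a chain of type V collagen, had a WSB chow median of 6280 (2770 to 8890) and a WSB high fat median of 2050 (994 to 3190). The medians of the other strains ran from 14.4 in AJ to 57.6 in CAST, and PWK had 955. The WSB and other libraries overlapped, with 8 of the 110 others above the lowest WSB library, and the difference was 6.22 ± 0.18 (adjusted p = 1.53e-58). Lrp2, the endocytic receptor megalin, had a WSB median of 226 (46.8 to 288) against strain medians of 0 to 22.4, and its lowest WSB value was that of chow replicate 2. Fam107a, an actin-binding protein, had a WSB median of 319 (120.4 to 1180) against strain medians of 1.85 to 31.4. Nuggc, a nuclear GTPase of germinal centre B cells, had 291 (154.7 to 715) against 0 to 64.9. Mup8, a major urinary protein, had 8200 (2170 to 15300) against 28.7 to 705, with 1 library of the others above the lowest WSB value. Gprc5a, an orphan receptor induced by retinoic acid, Syngr1, a vesicle protein, and Fbxo40, a ubiquitin ligase subunit, were higher by 3.41 ± 0.23, 2.82 ± 0.18 and 2.20 ± 0.17, each with libraries of the others inside the WSB range.

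On the low side, Rdh9, a retinol dehydrogenase family member, had a WSB chow median of 35.2 (7 to 109.9) and a WSB high fat median of 7.69 (4.75 to 18.3), where the other strains had medians of 139.6 to 657. Tgtp1, an interferon-induced GTPase, had a WSB median of 0.216 (0 to 8.14) against strain medians of 33.7 to 157.3. Cxcl13, a chemokine that attracts B cells, had 6.26 (0 to 53.2) against 87.6 to 293, and its highest WSB value was again that of chow replicate 2. These groups overlapped in few libraries: 2 of 110 others were under the highest WSB value for Tgtp1, 15 for Cxcl13 and 10 for Rdh9. Fmn1, a formin, Gna14, a G protein alpha subunit, and Slc37a1, a sugar phosphate exchanger, had differences of -2.56, -2.54 and -2.46 with SE of 0.16, 0.17 and 0.24. Cyp3a59 had a difference of -3.65, and without chow replicate 2 it was not WSB-extreme (adjusted p = 0.0765).

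Some WSB-extreme genes lay beside one another on the chromosomes. In the order of tested genes, 37 of 240 lower genes with a position (15.4%) had a WSB-extreme and lower gene next to them on either side, as did 3.63% of all tested genes with a position. For higher genes it was 18 of 240 (7.5%), against 3.57% of all. Examples, picked after their values were seen, are Pon1 beside Pon3 and Pilrb1 beside Pilrb2 (lower), and Plvap beside Bst2 (higher). Neighbouring genes can share reads, share a haplotype or be copies of one another, and these were not separated.

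Lipid synthesis genes stood low in WSB. Of the 22 tested genes for fatty acid and triglyceride synthesis, 16 were lower and 1 was higher (Dgat1, 0.18 ± 0.05), with a median of -0.62 where the median of all genes was -0.01. Of all genes tested 27.8% were lower and 27% higher. Their mean level was the lowest of the 8 strains, with 129S1 next. Me1, malic enzyme, which makes NADPH, had a difference of -1.71 ± 0.17 (adjusted p = 4.71e-16). Its WSB chow median was 151.5 (72.6 to 290) and its WSB high fat median 497 (384 to 581), against 886 and 890 in the others, so the WSB diets did not overlap. Thrsp, a regulator of lipogenesis, was the only WSB-extreme gene of the list at -1.98 ± 0.25, with a WSB median of 602 (125.9 to 2270) against strain medians of 1190 to 3670. Fasn, fatty acid synthase, had a WSB median of 790 (502 to 1680), above CAST (580) and under the other strains (1510 to 3650). Pnpla3, a triglyceride lipase induced by feeding, had a difference of -2.25 ± 0.31, with the WSB median (2.26) close to that of 129S1 (1.78). Scd1, the desaturase, and Srebf1, the transcription factor that drives the pathway, had differences of -1.43 and -0.59. Without chow replicate 2 the list had 15 lower and 1 higher.

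The cholesterol synthesis and uptake list was low as well. Of 23 genes, 17 were lower and 1 higher (Ebp, 0.14), with a median of -0.57, where 27.8% of all genes were lower and 27% higher. Fdps, which makes farnesyl diphosphate, had a WSB median of 144.7 (56.4 to 593), between CAST (121.8) and the other strains (415 to 869), a difference of -1.61 ± 0.21 (adjusted p = 1.34e-10). Stard4, a sterol carrier, Sc5d and Msmo1, late enzymes of the pathway, and Sqle, squalene epoxidase, had differences of -0.93, -0.68, -1.32 and -1.55. Insig1 and Hsd17b7 were among those that did not pass the test. CAST lay slightly lower than WSB over the list (-0.57 against -0.56, centred on the 8 strains), and no member was WSB-extreme. Without chow replicate 2 the counts were 18 and 1.

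Of 18 genes for lipid droplets and fat storage 10 were lower and 2 higher (Fitm1, 2.13 ± 0.16, and Plin3, 0.21). Without chow replicate 2 they were 8 and 1. The Fitm1 WSB median (86.9) was under those of NOD (92.6), NZO (131.7) and B6 (154.7). Of 29 for fatty acid oxidation and ketogenesis 12 were lower and 5 higher, among them Acadvl, Acaa1a, Ehhadh and Ppargc1a. Without chow replicate 2 they were 11 and 5. Over all genes 27.8% were lower and 27% higher. Both lists depended on the comparator. Against the classical strains alone 12 storage genes were lower and 2 higher, and 17 oxidation genes were lower and 3 higher. Against CAST and PWK 3 storage genes were lower and 4 higher, and 4 oxidation genes were lower and 11 higher. Of all 13524 genes tested 3839 were lower and 3614 higher against the classical strains. Against CAST and PWK they were 3847 and 4008. Pparg, the adipogenic nuclear receptor, had a WSB median of 4.07 (0 to 12.2), like CAST (3.55) and PWK (2.35), and below B6 (76.1) and NZO (69.2). Against the classical strains the difference was -2.33 (adjusted p = 1.18e-22), and against CAST and PWK it was 0.35 and did not pass the test (adjusted p = 0.12). Cyp4a14, a fatty acid hydroxylase and target of PPARA, had a WSB median of 15.5 (3.23 to 495), against 3.62 to 26.4 in PWK, CAST and NOD and 529 to 1900 in the other 4. Fabp2, a fatty acid binding protein, was WSB-extreme at -0.82 ± 0.09, a call lost without chow replicate 2 (adjusted p = 0.0725). Acadvl, very long chain acyl-CoA dehydrogenase, was higher by 0.26 ± 0.05. CAST had an Acadvl median of 432 where the other strains had 2720 to 3120, and without CAST in the comparator the Acadvl difference was -0.14.

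Of 24 lipoprotein and lipase genes, 12 were higher and 2 lower (Angptl8, -1.12, and Pltp, -0.50). Apom, an apolipoprotein that carries sphingosine 1-phosphate, was WSB-extreme, with a WSB median of 1620 (1300 to 2620) against strain medians of 726 to 1170 and a difference of 0.84 ± 0.08 (adjusted p = 1.37e-18). Apoh, Apoc3 and Apoc1 were higher by 0.37, 0.35 and 0.39. The Apoh WSB median (16000) was near those of AJ (15600) and NOD (15400), and the lowest strain median was that of CAST (5770). Lpl, lipoprotein lipase, was higher by 0.90 ± 0.19. Of 22 genes for bile acids and sterols 8 were higher and 3 lower, the latter Slco1a4, Baat and Akr1d1, against 27% and 27.8% of all genes. Cyp7b1 (1.32 ± 0.16) and Cyp8b1 (1.21 ± 0.22), hydroxylases of the bile acid pathways, were higher. The Cyp7b1 WSB median (9030) was level with PWK (9080) and under CAST (12700), and the classical strains had 1040 to 4520. Slco1a4, an uptake transporter, had a difference of -2.02 ± 0.23.

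The glucose list was even, with 7 higher and 7 lower of 20, or 6 and 7 without chow replicate 2. Over all genes 27% were higher and 27.8% lower. Tkfc, which phosphorylates dihydroxyacetone in fructose breakdown, had a difference of -1.11 ± 0.11, and Ppp1r3c and Ppp1r3b, subunits that bring a phosphatase to glycogen, had differences of -1.82 ± 0.26 and -1.07 ± 0.16. Pck1, the gluconeogenic enzyme, was higher by 0.67. Of 18 genes of the insulin and growth hormone axis 8 were higher and 2 lower (Cux2 and Lepr). Igfbp2, a binding protein of insulin-like growth factors, had a WSB median of 4430 (2380 to 7960) against strain medians of 462 in NZO to 3400 in CAST, and Irs2, the insulin receptor substrate, had 205 (109.5 to 538) against 63.9 to 117.3. Their differences were 1.34 ± 0.16 and 1.10 ± 0.20.

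**Figure D3:**
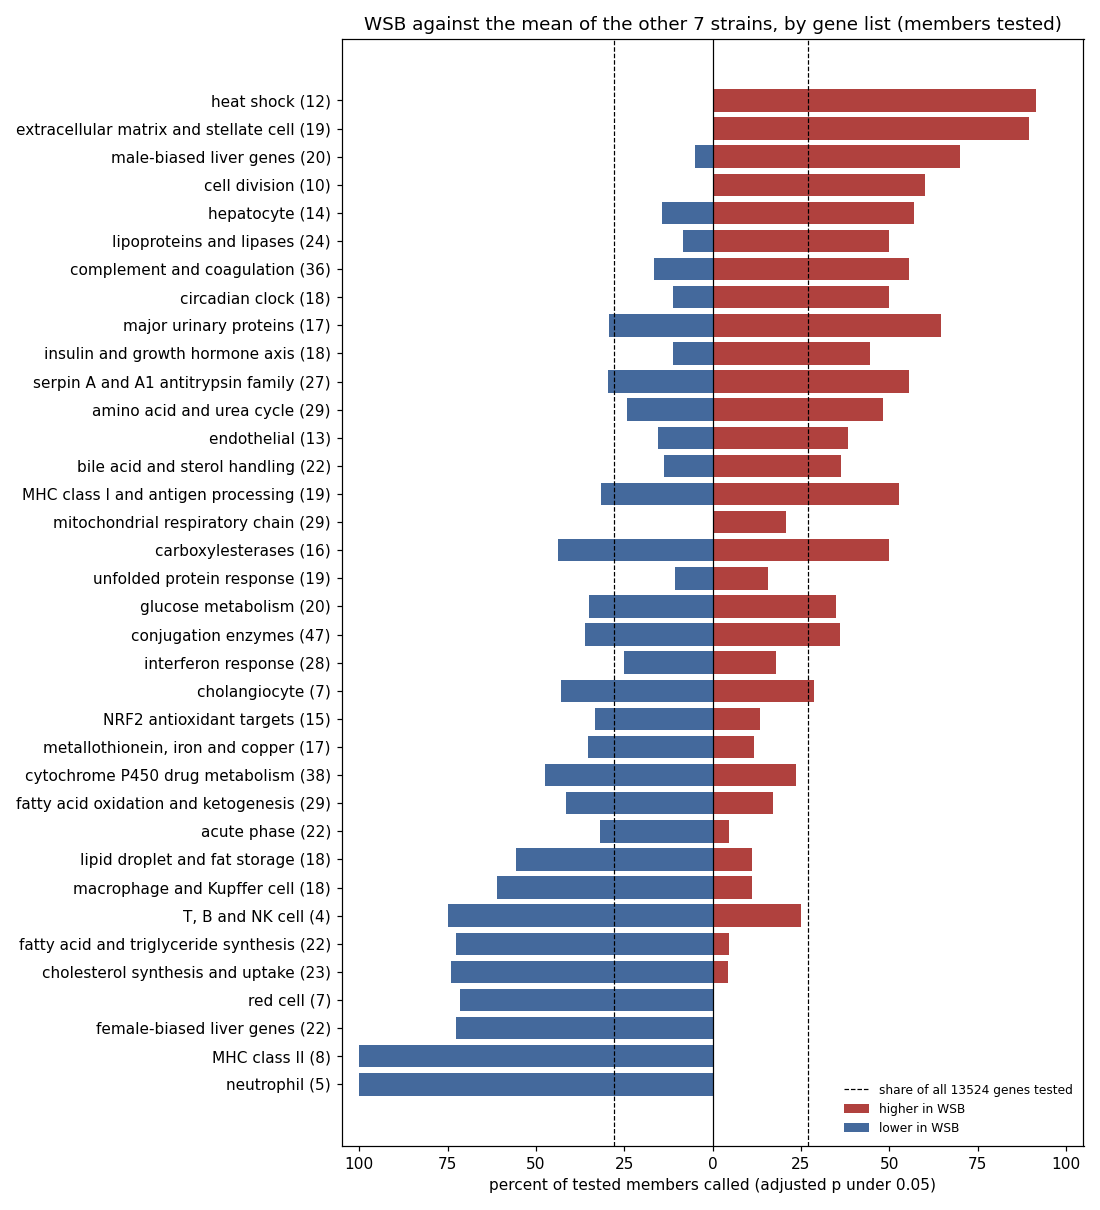
Percent of the tested members of each gene list called higher (red, right) or lower (blue, left) in WSB against the mean of the other 7, with the number tested in brackets; lists with 4 or more tested members are shown. The dashed lines are the shares over all 13524 genes, 27% and 27.8%; heat shock and matrix genes lie far to the right, and neutrophil, MHC class II and female-biased genes far to the left.

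Sex-biased liver genes, which in mice follow the pattern of growth hormone secretion, were shifted although all founder mice were males. Over all genes tested 27% were higher and 27.8% lower. Of 20 male-biased genes 14 were higher and 1 lower (Serpina1e), with a median of 0.70. Of 22 female-biased genes 16 were lower and none was higher, with a median of -1.61 and a mean level that was the lowest of the 8 strains; a limma fit with voom weights called 10 of them. Against the classical strains alone 19 of 20 male-biased genes were higher, and against CAST and PWK 6 were higher and 9 lower. Selenbp2, a selenium-binding protein, had a WSB median of 20200 (10200 to 29900), in the range of NOD (13700) and CAST (18800) and above AJ (221), 129S1 (480) and B6 (806). Mup20, the pheromone darcin, had a WSB median of 32000 (17000 to 60500), near B6 (39900) and PWK (50100) and above CAST (63.1). Moxd1, a monooxygenase, was higher by 3.11 ± 0.41. Among female-biased genes, Cyp2a4, a steroid hydroxylase, had a WSB median of 3.66 (1.45 to 13.8), close to NOD (2.10) and B6 (5.38), where PWK had 1320 and AJ 387. Cyp2b9 had 0.444 (0 to 2.36), and 129S1, CAST and PWK were at a median of 0 while AJ had 642. Slc22a26, an organic anion transporter, Cyp2c40 and Cyp3a44 had differences of -2.97 ± 0.29, -2.18 ± 0.22 and -2.56 ± 0.31. No member of either list was WSB-extreme.

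The major urinary proteins, pheromone carriers encoded by a large cluster of near-identical genes, differed widely in both directions: 11 of 17 were higher and 5 lower (Mup10, Mup2, Mup1, Mup16 and Mup9). The shares over all genes were 27% and 27.8%. Mup10 had a WSB median of 2690 (1820 to 4120) against 5740 in CAST, 6160 in PWK and 62700 to 226000 in the classical strains, a difference of -4.30 ± 0.15. Mup19 had 405000 (249000 to 557000) against 913 in NZO to 266000 in CAST. Mup13 had 14500 (3380 to 26000), under PWK (129000) and above the other strains (53.4 to 502). Reads from such copies can be split among them by the counting, so the value of 1 member is uncertain.

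Of 38 cytochrome P450 genes of drug metabolism 9 were higher and 18 lower, or 10 and 18 without chow replicate 2. For this and the next lists, the shares over all genes were 27% higher and 27.8% lower. Cyp2d22 was WSB-extreme, with a WSB median of 4280 (2630 to 4950) against strain medians of 851 to 1880 and a difference of 1.60 ± 0.07 (adjusted p = 1.79e-39). Cyp2f2, which oxidises naphthalene, was WSB-extreme too, at 0.91 ± 0.07. Cyp3a11, the main inducible 3A enzyme, had a difference of -2.61 ± 0.27. Cyp2c38 had a WSB median of 4.29 (0 to 17.5), between PWK (2.15) and CAST (14.1) and below the classical strains (62.6 to 743). Conjugation enzymes were even, with 17 higher and 17 lower of 47. Sult1c2, a sulfotransferase, had a WSB median of 1.22 (0 to 4.02) against strain medians of 7.44 to 44.6 and was WSB-extreme, as was Nat1, an acetyltransferase (-1.77 ± 0.19). Ugt3a2, a sugar transferase, had a WSB median of 190.5 (133.4 to 272), like CAST (240) and PWK (293), and the classical strains had 1850 to 2680. Of 16 carboxylesterases 8 were higher and 7 lower, or 7 and 7 without chow replicate 2. Ces2h had 555 (349 to 779), like CAST (320) and PWK (553), while the 5 classical strains were at medians of 1.15 to 4.10, and Ces3b was WSB-extreme at 1.38 ± 0.12. Of 15 antioxidant targets of NRF2, 2 were higher (Gpx3, 1.23 and WSB-extreme, and Nqo1, 0.99) and 5 lower (G6pdx, Gsr, Nfe2l2, Srxn1 and Gclm), or 2 and 2 without chow replicate 2. The Nqo1 WSB median (49.7) was under that of CAST (64.2) and above those of the other strains (9.08 to 32.9).

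Genes of complement, coagulation and the serpins were more often higher than lower, and acute phase genes were not. Over all genes tested 27% were higher and 27.8% lower. Of 36 genes of complement and coagulation 20 were higher and 6 lower, or 20 and 5 without chow replicate 2. Hc, complement component C5, was WSB-extreme, with a WSB median of 14600 (10400 to 17600) and a difference of 1.23 ± 0.07. Its medians were 2640 in AJ and 2480 in NOD, and 7240 in PWK to 10700 in 129S1 among the rest. C1ra was WSB-extreme at 0.52 ± 0.04. C1s2, which shares sequence with C1s, had 357 (292 to 437), like AJ, NOD, CAST and PWK (318 to 606), while 129S1, B6 and NZO were at 1.22 to 2.81. Of 27 serpin genes, protease inhibitors of the plasma, 15 were higher and 8 lower. Of these Serpinc1, antithrombin (0.47 ± 0.03), Serpinf1 (0.66 ± 0.05), Serping1, the C1 inhibitor (0.46 ± 0.06), and Serpina3a (3.82 ± 0.15) were WSB-extreme and higher, and Serpina3g (-2.45 ± 0.20) was lower. The acute phase list had 1 of 22 higher and 7 lower, the latter near the share over all genes, or 9 lower without chow replicate 2. The gene that was higher, Orm3, an orosomucoid, had 740 (576 to 969) against strain medians of 27.4 to 200. Hamp2, a hepcidin copy, was WSB-extreme and lower, with a WSB median of 41.6 (7.17 to 317, the highest again chow replicate 2) against strain medians of 192.1 to 2140. Of 17 metal-handling genes 2 were higher (Slc39a4 and Tfr2) and 6 lower, or 4 and 6 without chow replicate 2.

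Amino acid and urea cycle genes had 14 higher and 7 lower of 29, or 15 and 7 without chow replicate 2. Glul, glutamine synthetase of the hepatocytes around the central vein, was WSB-extreme and lower, with a WSB median of 4150 (2040 to 6150) against strain medians of 5850 to 11200 and a difference of -0.96 ± 0.09. Gnmt, a methyltransferase (0.77 ± 0.09), and Otc, of the urea cycle (0.47 ± 0.06), were WSB-extreme and higher. The clock list had 9 higher and 2 lower (Cry1 and Hlf) of 18, and the time of day at which mice were killed is not in the labels. Of 29 respiratory chain genes 6 were higher and none lower, or 9 and none without chow replicate 2, shares near or below the 27% and 27.8% over all genes. Nnt, a proton-pumping transhydrogenase that carries a lesion in B6, had a WSB median of 872 (619 to 1040) and its lowest strain median in B6 (392). The unfolded protein list had 3 higher (Xbp1, Pdia6 and Asns) and 2 lower (Pdia4 and Dnajb9) of 19, shares below those over all genes. Without chow replicate 2 it had 2 higher and 3 lower, and Xbp1 did not pass the test (adjusted p = 0.0837).

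**Figure D4:**
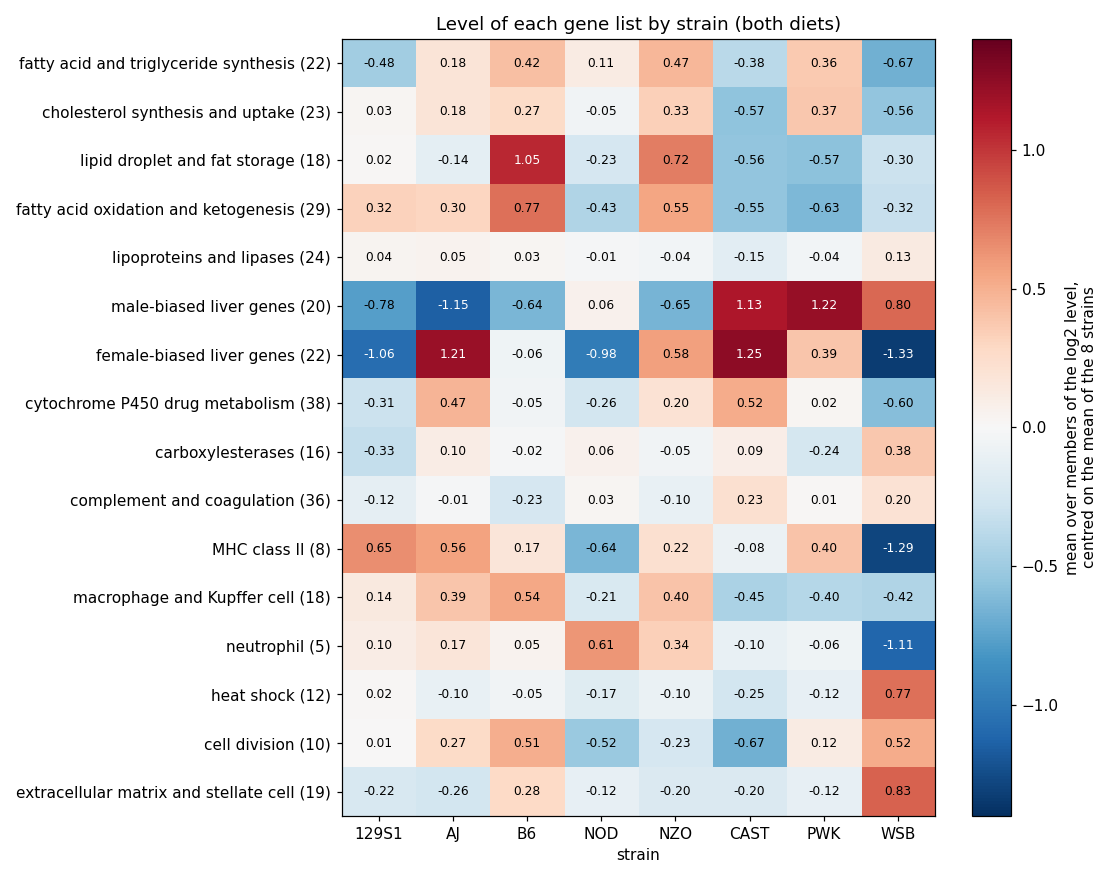
Mean over the members of each list (rows, members tested in brackets) of the log2 strain level, centred on the mean of the 8 strains (columns), both diets. WSB is the highest for heat shock (0.77) and matrix genes (0.83), and the lowest for fatty acid synthesis (-0.67), MHC class II (-1.29), female-biased (-1.33) and neutrophil genes (-1.11).

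MHC class II genes and several markers of immune cells were lower. All 8 MHC class II genes tested were lower across both diets, with a median of -0.90, as they were without chow replicate 2. On high fat alone all 8 were lower, and on chow alone 3 were, or 1 without chow replicate 2. Of all 13524 genes tested 2969 were lower on high fat and 2754 on chow. Across both diets 3765 were lower and 3654 higher. H2-Eb1, a class II beta chain, had WSB values of 0 to 6.29, PWK had a median of 5.80, and the other strains had medians of 65.7 to 228; it was WSB-extreme at -5.59 ± 0.22. Cd74, the invariant chain, had a WSB median of 245 (156.5 to 520) against strain medians of 257 to 904, and H2-Ab1 had 60.7 (33.7 to 121.6) against 64.8 to 320. In class I, 10 of 19 genes were higher and 6 lower, or 9 and 6 without chow replicate 2. H2-D1, a classical class I chain, was WSB-extreme and lower, with 781 (648 to 1380) against strain medians of 1270 to 4430. H2-T23 was higher by 1.31 ± 0.07, with a WSB median of 1410 (1020 to 2160). Its medians were 205 in AJ and 101.2 in NOD, and 742 in 129S1 to 1300 in NZO among the rest. H2-K2 had a WSB median of 1.85 (0 to 11.8) against strain medians of 12.3 to 149.1. These genes are highly variable between strains. The name the authors gave the table says that founder reads were aligned to strain genomes, and the part of read alignment in these H2 values was not tested.

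Of the 18 markers of macrophages and Kupffer cells, the resident macrophages of liver, 11 were lower and 2 higher (Trem2 and Gpnmb). Against the classical strains alone 14 of the 18 were lower and 2 higher, and against CAST and PWK 8 were lower and 5 higher. On high fat 14 were lower and 0 higher, and on chow 7 were lower and 2 higher. The mean level of the list was lowest in CAST (-0.45, centred on the 8 strains), with WSB (-0.42) and PWK (-0.40) close to it. Timd4, a receptor for dying cells, had a WSB median of 11.9 (3.07 to 31.1) against strain medians of 17.7 in CAST to 67.4 in AJ, a difference of -1.67 ± 0.16. Adgre1, the F4/80 antigen, had 54.8 (29.7 to 96.9), like CAST (56.5) and PWK (70.8) and under the classical strains (98 to 193.2). The summed level of the list was 1256 to 4093 in WSB and 1182 to 9137 in the others. All 5 neutrophil markers tested were lower (S100a8, S100a9, Csf3r, Cxcr2 and Retnlg), with sums over the 10 listed of 16.4 to 185 in WSB and 20.1 to 611 in the others, and of the 4 lymphocyte markers tested Igkc, Ighm and Ptprc were lower and Cd4 was higher. Of the 7 red cell genes 5 were lower (Alas2, Hba-a2, Hbb-bt, Hbb-bs and Slc4a1), or 4 without chow replicate 2, where Slc4a1 did not pass the test (adjusted p = 0.0618). Against the classical strains alone 6 were lower, and against CAST and PWK none was lower and 1 was higher. Alas2 had a WSB median of 198.5, above CAST (78.2) and PWK (113.2) and under the classical strains (712 to 1390). The call for Hbb-bs held in 14 of 16 fits that each left out 1 WSB library. In bulk liver, fewer cells of a type and less RNA per cell cannot be told apart. Hepatocyte markers had 8 of 14 higher and 2 lower (Alb and Ttr). Endothelial ones had 5 of 13 higher and 2 lower (Lyve1 and Emcn), and bile duct ones 2 of 7 higher and 3 lower. Over all genes 27% were higher and 27.8% lower. Alb (adjusted p = 0.0528) and Emcn (adjusted p = 0.295) did not pass the test without chow replicate 2, leaving 1 lower in each of the hepatocyte and endothelial lists. Of the pancreas list only Cela1 was tested and it was higher, and of 3 adipocyte genes Fabp4 and Cidea were lower.

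Genes of extracellular matrix and of stellate cells, the vitamin A-storing cells that make liver collagen, lay far above the background of 27% higher. Of 19 tested, 17 were higher and none lower, with or without chow replicate 2, and the median was 0.76. The 5 WSB-extreme ones were Col5a2, Sparc, Bgn, Des and Pdgfrb. Sparc, a secreted matrix protein, had a WSB median of 665 (371 to 984) against strain medians of 225 to 457, a difference of 0.92 ± 0.08. Des, the muscle and stellate cell filament desmin, and Pdgfrb, the receptor for platelet-derived growth factor, were higher by 0.82 ± 0.11 and 0.75 ± 0.10. The collagens Col1a1, Col1a2 and Col3a1 were higher by 1.01 ± 0.22, 1.07 ± 0.15 and 0.86 ± 0.17, and Lrat, which esterifies retinol, by 0.63 ± 0.13. Lum and Timp1 did not pass the test. The summed level was 6436 to 16750 in WSB and 2175 to 10210 in the others, a sum in which Col5a2 has a large share. On chow 17 of the 19 were higher and on high fat 11 were, with 1 lower. Of all 13524 genes tested 2684 were higher on chow and 2827 on high fat.

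Heat shock genes, which encode chaperones, were higher across both diets in 11 of 12 cases, Bag3 being the exception, with a median of 0.58. On high fat alone the same number, 11, were higher, and on chow alone 6 were higher and Bag3 was lower (-0.70). Of all 13524 genes tested 2827 were higher on high fat, 2684 on chow and 3654 across both diets. Hspa1a, Hsp90aa1 and Hsp90ab1 were WSB-extreme, and without chow replicate 2 Hsph1 was as well (adjusted p = 0.0105). Hsp90aa1 had a WSB chow median of 3230 (1910 to 3960) and a WSB high fat median of 5230 (2660 to 11800), against 2090 and 2000 in the others. Hspa1a had 108.4 (26.7 to 396) and 622 (134.9 to 2500), against 22.2 and 20.4, and its near-copy Hspa1b had 268 (41 to 963) and 1590 (402 to 6570), against 222 and 195.1; reads of these copies may be divided between them. The WSB libraries were spread from 26.7 to 2500 for Hspa1a, and they overlapped the others, 51 of which were above the lowest WSB value.

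The question of the diet comparison was whether the distance of WSB from the other strains depended on diet. The difference in diet response was called for 238 genes (1.76%), 94 with a more positive response in WSB and the rest with a more negative one, and for 180 genes without chow replicate 2. Without chow replicate 1 the share fell to 1.04% and without chow replicate 3 to 1.15%. The heat shock list held 7 of the 94, Hspa1b (2.75 ± 0.54), Hspa1a (2.72 ± 0.70), Hsph1, Dnajb1, Hsp90aa1, Dnaja1 and Hsp90ab1. Without chow replicate 2 the list held 5, Hspa1a (adjusted p = 0.0565) and Hsp90ab1 (adjusted p = 0.0819) not being among them. The within-strain change from chow to high fat for Hsp90aa1 was 0.93 in WSB and -0.61 to 0.41 in the others.

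Several interferon-responsive genes had a more negative response. Ly6e, a surface protein induced by interferon, had a WSB chow median of 1290 (659 to 2080) and a WSB high fat median of 226 (144.7 to 320), and the others had 1210 and 1250. No WSB chow library overlapped a WSB high fat library, and the response differed by -2.60 ± 0.25 (adjusted p = 6.05e-14). Ifi27 had 1120 (578 to 1840) and 281 (229 to 351) in WSB against 446 and 349, a difference of -1.60 ± 0.17 (adjusted p = 1.53e-12). Oas1a, which senses double-stranded RNA, had 90.7 (41.5 to 194.9) and 20.1 (11.2 to 36.1) against 27 and 22.8, a difference of -1.73 ± 0.32. Of the 28 genes of the interferon list 4 had a more negative response, Oas1a, Usp18, Irf7 and Ifi27l2a. Of all genes tested 1.76% had a called difference in diet response, in either direction. By level the same list was mixed, with 5 of 28 higher (Oas1a, Ifit3, Iigp1, Psmb8 and Irf9) and 7 lower. Without chow replicate 2 it was 4 and 8, and Iigp1 did not pass the test (adjusted p = 0.0921). These shares by level are near or below the 27% higher and 27.8% lower over all genes. Against the classical strains alone 4 were higher and 10 lower, and against CAST and PWK 14 were higher and 8 lower.

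Interferon acts through a factor complex that binds a short element in promoters, and chaperone genes are switched on by heat shock factors that bind another. The promoter letters of 1 gene of each list are printed to show what these elements look like. They were read from RefSeq (build GRCm38.p6), which is the C57BL/6J reference and not the WSB genome, and its coordinates are not those of the build the authors used. The 150 bases before the start site are printed 5′ to 3′ on the gene's strand, with matches in capitals, for Oas1a at chr5:120907526-120907675 (minus strand) and Hspe1, the mitochondrial co-chaperonin, at chr1:55087998-55088147 (plus strand).
Oas1a: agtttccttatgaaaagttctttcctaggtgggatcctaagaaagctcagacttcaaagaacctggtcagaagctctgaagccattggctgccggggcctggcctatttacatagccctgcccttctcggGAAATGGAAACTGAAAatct
Hspe1: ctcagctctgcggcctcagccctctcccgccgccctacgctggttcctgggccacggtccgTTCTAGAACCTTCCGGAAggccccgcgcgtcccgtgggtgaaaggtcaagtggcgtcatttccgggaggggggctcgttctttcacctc
The capitals in Oas1a are 2 overlapping matches to the interferon-stimulated response element, searched on both strands as a pair of GAAA units with any 2 bases between them. Of the 21 interferon list genes with a promoter in the table, 13 held it within 250 bases before the start, against 2.98% of all 32851 promoter windows. A list gene was counted if any of its windows held a match, whereas the percent is per window. The units are therefore unlike, here and for the heat shock element below. The capitals in Hspe1 are 2 overlapping matches to the heat shock element, searched on both strands as GAA, TTC and GAA with any 2 bases between neighbours. Of the heat shock genes, 2 of 9 with a promoter held it (Hspd1 and Hspe1), against 0.466% of all windows. These neighbours face away from each other and their windows overlap, so both hold the same stretch of letters, read on opposite strands. Of the genes of each list whose diet response was called, 0 of 5 heat shock genes with a promoter held the heat shock element, and 1 of 2 interferon genes, Oas1a, held the interferon element. Hspe1 was higher in WSB by 0.43 ± 0.06, and its diet response was not called. A match is a run of letters, and whether a factor was bound there was not measured.

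**Figure D5:**
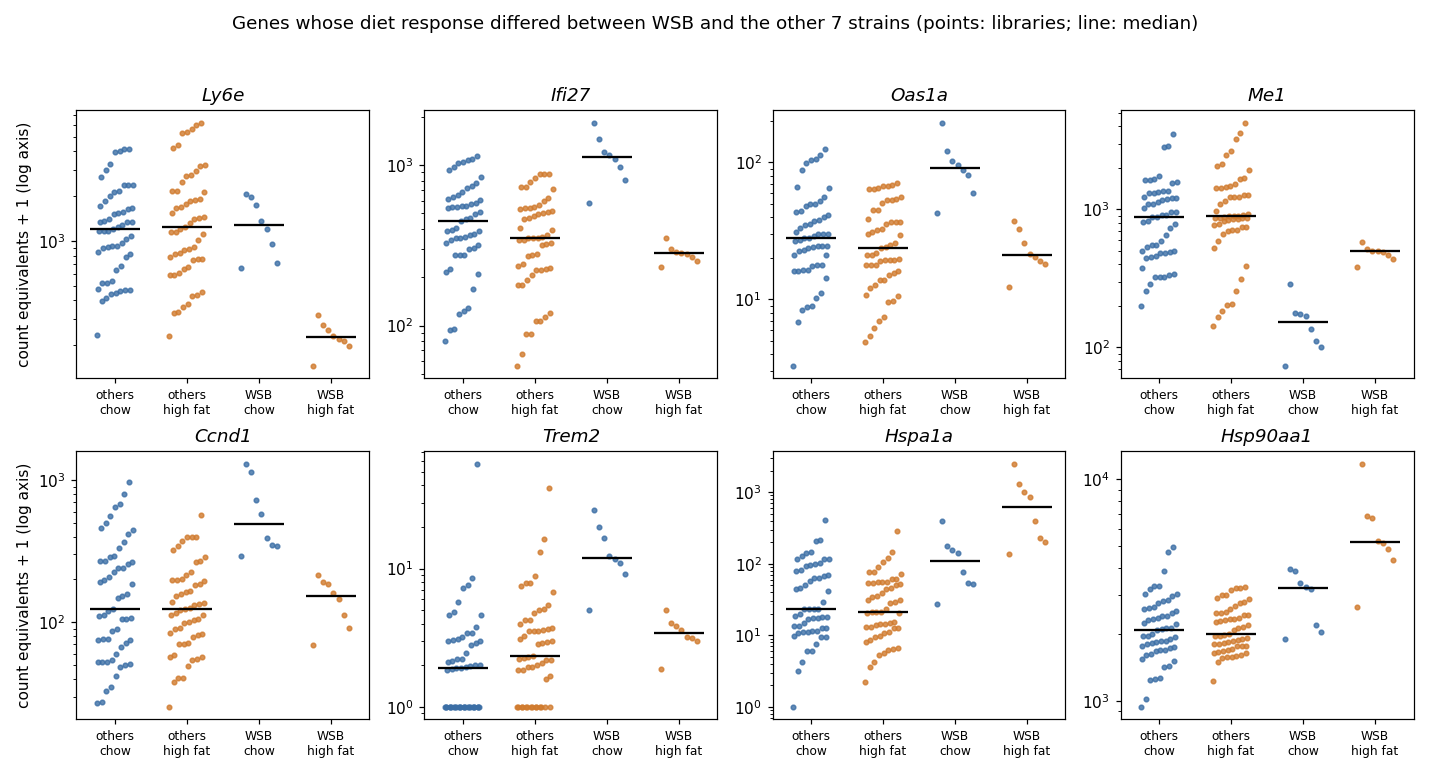
Count equivalents plus 1 (log axis) by diet in the other 7 strains (55 libraries per diet) and in WSB (8 per diet), with the median as a line, for 8 genes whose diet response differed. Ly6e, Ifi27, Oas1a, Ccnd1 and Trem2 were lower on high fat than on chow in every WSB library, Me1 was higher on high fat in every one, and Hspa1a and Hsp90aa1 had higher WSB medians on high fat (622 and 5230) than on chow (108.4 and 3230).

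Pla2g16, a phospholipase, was WSB-extreme and fell further on high fat, from 5.77 (4.72 to 16.5) to 1.82 (0 to 6.07), against 46 and 36. Fam83h, a keratin-organising protein, was likewise WSB-extreme and lower, with a response difference of -0.55 ± 0.10. Gldn, Lrtm2 and Mmp12, picked after their values were seen, were present in all 8 WSB chow libraries (17.5 to 81.8, 37.4 to 142.8 and 24.3 to 79.2) and at 0 to 2.22, 0 to 10 and 5.28 to 16.7 in the high fat ones. Their WSB diets did not overlap. Their means over the other 7 strains and both diets were 3.41, 8.24 and 12.4. Mmp12 encodes the macrophage elastase. Trem2 and Gpnmb, 2 markers of lipid-laden macrophages picked after their values were seen, were also lower on high fat. Trem2 was at 4.04 to 25.3 in WSB chow and 0.888 to 4.02 in WSB high fat, so its diets were barely apart. Gpnmb was at 12.1 to 48.4 and 0 to 7.78. Of the 18 macrophage and Kupffer cell markers, 3 had a called difference in diet response, all more negative. The share called in either direction over all genes was 1.76%. Across both diets 11 of the 18 were lower, and only Trem2 and Gpnmb were higher, against 27.8% lower and 27% higher over all genes.

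The diet response of WSB differed for 2 of the 10 cell division genes tested, Ccnd1 and Mki67, with or without chow replicate 2. Over all genes tested it differed for 1.76%. All 10 were higher on chow, 9 without chow replicate 2, whereas on high fat none was higher and 1, Mki67, was lower. Of all 13524 genes tested 2684 were higher on chow, and on high fat 2827 were higher and 2969 lower. Ccnd1, cyclin D1, had a WSB chow median of 486 (293 to 1300) and a WSB high fat median of 151.2 (68.5 to 212), against 123.5 and 122.2 in the others, and its response differed by -1.81 ± 0.38 (adjusted p = 0.00189). Mki67, the proliferation antigen, had 35.9 (3.54 to 92.1) and 9.26 (2.66 to 21.1), against 14.3 and 19.6, a difference of -2.12. Across both diets 6 of the 10 were higher and none lower, against 27% and 27.8% over all genes. Several of these genes are at few count equivalents, and under a filter of 50 in 8 libraries 2 of the 10 were tested.

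Lipid genes also entered the diet comparison. Me1 had a more positive response in WSB (1.60 ± 0.34). Cpt1a, the carnitine transferase that admits fatty acids to mitochondria (-0.67), Vnn1 (-1.67), Acot3 (-2.76), Cd36, a fatty acid transporter (-1.26), Mogat1 (-1.60) and Pnpla2, the triglyceride lipase ATGL (-0.80), had a more negative one. Mogat1 (adjusted p = 0.0564) and Pnpla2 (adjusted p = 0.0539) did not pass the test without chow replicate 2. For Cd36 the medians were 349 on chow and 282 on high fat in WSB, and 264 and 482 in the others, where the change from chow to high fat ran from -0.24 to 2.05 by strain and was -0.43 in WSB.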

How the data were processed

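The table deposited by the authors holds 1 signal value per Ensembl gene and library for 24965 genes in 128 founder libraries. Per the submitters' processing notes, reads were handled with CASAVA 1.8.0, Bowtie 0.12.8 and RSEM 1.2.1 on the NCBIM37 (mm9) build, and the authors' name for the deposited table says that reads were aligned to strain genomes. The deposited values behave as estimated counts divided by each library's upper quartile. The count unit was recovered per library from steps in the low values, but only 83.4% of values below 20.5 came out whole within 0.1, so no test built on read counts was used as the main one. Every value was multiplied by 1 constant (114.528), log2(value + 1) was taken, and genes at 10 or more in 8 or more libraries were kept (13524). limma 3.58.1 with a trend, in R 4.3.3, fitted 16 strain by diet means to 126 libraries (110 residual degrees of freedom) with Benjamini-Hochberg adjustment. Being beyond each of the other 7 strains took the largest of 7 p-values. Contrasts weight strains and diets equally. Per the series text each library was read in technical replicates, and the deposited table has 1 column per mouse. The fit was tested on simulated counts in which some genes were changed in WSB only. These counts held no other strain or diet differences, unlike the real data.

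The tests were two-sided and are over libraries labelled as separate mice. The labels place 1 library of every group in each of 8 lanes. Lane was an alternative term. The 2 libraries nearest another strain's profile were left out, and the Diversity Outbred libraries were not analysed here. Named genes were, among those with a regular symbol, the 14 largest differences in each direction among WSB-extreme genes with a mean of 50 or more, up to 4 members of each list with the smallest p, the 6 smallest p for the diet response, and Cwc22 and Nnt. Other list members named in the text were picked after their values were seen. Some genes are not reported here. The members, the 38 gene lists and the tests were chosen with earlier results of these data known. Symbols were found for 22760 of 24965 identifiers in a table of build GRCm38, used for names, gene order and promoter sequences only. Near-identical genes (Mup, Cyp2c, Cyp3a, H2, Serpina, Ces, Hspa1a and Hspa1b) can share reads, and no source used here says whether counting used the strand. Alternatives changed the model, scaling, filter, pseudocount, comparator, null fold and libraries.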

Additional observations from a re-analysis of the deposited data

Results flagged for a closer look

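For each named gene the libraries of WSB chow and of WSB high fat were searched for 1 library standing apart, by the gap to its nearest neighbour as a share of the group's whole range on the log2 scale. Of 338 such groups 23 had a gap past Dixon's 95% critical value for 8 libraries, where chance gives about 1 in 20 groups. The values are count equivalents.

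WSB chow replicate 2 accounted for 8 of the 23. In it Lrp2 was lowest at 46.8 where the other 7 had 163.3 to 288 (a gap of 0.686 of the range). Cxcl13 was highest at 53.2 where the other 7 had 2.69 to 9.45 (a gap of 0.613 of the range). Acadvl was lowest at 1880 where the other 7 had 2370 to 2730 (a gap of 0.621 of the range). Itih3 was highest at 21900 where the other 7 had 7990 to 11300 (a gap of 0.653 of the range). Serpina3h was highest at 809 where the other 7 had 55.8 to 120.7 (a gap of 0.713 of the range). Cxcl9 was highest at 865 where the other 7 had 17.6 to 33.7 (a gap of 0.838 of the range). Nnt was lowest at 619 where the other 7 had 803 to 998 (a gap of 0.543 of the range). Clec4g was lowest at 203 where the other 7 had 343 to 481 (a gap of 0.609 of the range).

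The other 15 were spread over 11 libraries. In WSB high fat replicate 3, Cyp3a59 was lowest at 0 where the other 7 had 4.5 to 8.01 (a gap of 0.776 of the range), and Mx1 was highest at 18.6 where the other 7 had 3.3 to 6.31 (a gap of 0.65 of the range). In WSB high fat replicate 4, Pparg was lowest at 0 where the other 7 had 3.55 to 12.2 (a gap of 0.587 of the range). In WSB high fat replicate 5, Foxo1 was highest at 997 where the other 7 had 421 to 629 (a gap of 0.534 of the range), and Lyve1 was highest at 70.3 where the other 7 had 14.1 to 25.1 (a gap of 0.648 of the range). In WSB high fat replicate 6, C1s2 was lowest at 308 where the other 7 had 369 to 418 (a gap of 0.591 of the range), and Hc was lowest at 10400 where the other 7 had 13400 to 16900 (a gap of 0.529 of the range). In WSB high fat replicate 7, Cyp2d22 was lowest at 3640 where the other 7 had 4320 to 4950 (a gap of 0.559 of the range). In WSB high fat replicate 8, Fbxo40 was highest at 146.5 where the other 7 had 65.1 to 92.3 (a gap of 0.57 of the range). In WSB chow replicate 1, Orm3 was lowest at 576 where the other 7 had 701 or more (a gap of 0.539 of the range), and C1qc was highest at 222 where the other 7 had 101.6 to 144.1 (a gap of 0.553 of the range). In WSB chow replicate 3, Cfd was highest at 15.6 where the other 7 had 0 to 1.88 (a gap of 0.623 of the range). In WSB chow replicate 4, Stab1 was lowest at 460 where the other 7 had 666 to 894 (a gap of 0.556 of the range). In WSB chow replicate 6, Cxcr2 was lowest at 0 where the other 7 had 3.64 to 16.5 (a gap of 0.536 of the range). In WSB chow replicate 7, C1s2 was highest at 437 where the other 7 had 292 to 345 (a gap of 0.583 of the range).

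For 13 named genes the diet response of WSB differed from that of the other strains by the interaction term of limma at an adjusted p under 0.05. The difference, in log2 units, was positive for Hspa1a (2.72), Gna14 (1.19), Me1 (1.60), Hsp90aa1 (0.93), and Hsp90ab1 (0.63). It was negative for Rdh9 (-1.10), Pla2g16 (-1.49), Asns (-1.79), Ccnd1 (-1.81), Ly6e (-2.60), Ifi27 (-1.60), Oas1a (-1.73), and Fam83h (-0.55). Without chow replicate 2 Hspa1a (adjusted p = 0.0565), Gna14 (adjusted p = 0.103), Hsp90ab1 (adjusted p = 0.0819) and Asns (adjusted p = 0.0752) did not pass the test.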

How the results depend on the processing

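Counts of genes are given here as the percent of genes tested. Testing against a null fold of 1.5 gave 8.79% for WSB against the mean of the other 7, 6.52% for WSB against the other 7 on chow, 7.31% for WSB against the other 7 on high fat, 8.84% for WSB against the 5 classical strains, 13.6% for WSB against CAST and PWK, 0.51% for WSB apart from each of the other 7 and 0.126% for the difference of the WSB diet response from the other 7. The last was 1.76% as reported and 1.14% with limma-voom. Leaving out each WSB library in turn gave it 1.04% (without chow replicate 1) to 2.43% (without chow replicate 7), with 1.15% without chow replicate 3. For the same comparisons in the order above, leaving out 1 WSB library gave 52.9% to 55.2%, 35.4% to 40.3%, 39.6% to 43.2%, 53.3% to 55.6%, 56.7% to 57.9% and 3.36% to 3.94%. With no filter 24948 genes were tested, and the shares in the same order were 34.5%, 23.8%, 25.1%, 34.4%, 37.3% and 2.16%, with 0.926% for the diet difference. Outside the null fold of 1.5, where every number fell by over 1.5 times, the numbers of genes called in these comparisons moved by less than that. This held with no filter too, unlike for the shares. The exceptions were the diet difference with limma-voom, without chow replicate 1 and without chow replicate 3. With lane, which holds 1 library of every group, as a blocking term, the diet difference was 1.77% and WSB-extreme genes 3.66%, every named difference kept its direction and its side of the threshold, and no count moved by over 1.5 times. Over 215 results and all settings, 3481 values kept direction and side of the threshold, 75 lost and 6 gained the threshold, 53 counts moved by over 1.5 times and 2 values reversed. The reversed ones were Acadvl without CAST in the comparator (-0.14) and Cfd without B6 (0.023); Cfd passed the test in neither fit, and the cause was not tested. Under a filter of 50 in 8 libraries 4 genes of the MHC class II list were tested and all 4 were lower. Quantile normalization called 12 of the acute phase list lower and 1 higher. Counting genes with identical values once, and the list counts without chow replicate 2, were chosen after seeing the data. Totals of 5848163 and more limit genes near the filter of 10 count equivalents, where 1 library can decide a value. No paired analysis was possible because the labels give founder mice no replicate numbers, apart from the blocked fit by lane.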
